A study of Mus musculus with 4 samples.

Results

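The resident macrophages described here were 3931 cells of the uninjured mouse heart, chosen by a rule on their own transcripts. A unique molecular identifier (UMI) stands for 1 captured transcript. A cell of the baseline library with over 200 genes and between 500 and 40000 UMIs was a member when at least 2 of the 4 genes Lyve1, Cd163, Cbr2 and Folr2 had a UMI and when C1qa, C1qb and C1qc together held at least 30 of every 10000 UMIs. The members made up 38.4% of the 10238 baseline cells that were kept (exact binomial 95% interval 37.5 to 39.4%). They were 58.9% of the 6672 baseline cells that passed the C1q cut (57.7 to 60.1%). The other 2741 cells that passed the C1q cut served as the comparison. The baseline intervals cover error of counting and nothing else.

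All libraries came from CSF1R-EGFP+ mice aged 12 to 16 weeks, in which the Csf1r promoter drives a green fluorescent reporter, and the cells were sorted as EGFP+ and Ly6G-. Hearts of 3 mice without surgery were pooled into the 1 baseline library, which has no replicate, so no value in it was tested. Each of the 3 infarct libraries held 1 heart, taken 7 days after left coronary artery ligation, with the remote zone cut away before digestion. Across the 4 libraries 41533 cells were kept, and 26 to 34 cell barcodes were shared by any pair of libraries, at most 0.330% of the cells of the first.

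Tissue-resident macrophages of the heart are cells that persist in the myocardium and are known for clearing dying cells and debris, for handling iron and for supporting vessels. LYVE1 is a hyaluronan receptor, CD163 takes up haemoglobin bound to haptoglobin, CBR2 is a carbonyl reductase and FOLR2 is a folate receptor, and all are widely used to mark such cells. In mouse heart, cells with these markers are usually set apart from macrophages that carry CCR2, a chemokine receptor of monocytes, and from those with high MHC class II, the molecules that present antigen to T cells.

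Most members carried more of the 4 genes than the rule required. All 4 had a UMI in 1780 members (45.3%), exactly 3 in 1045 (26.6%) and exactly 2 in 1106 (28.1%). The most common pair without the others was Cd163 with Cbr2, in 562 members (14.3%), and the rarest was Lyve1 with Folr2, in 33 (0.840%). Lyve1 and Folr2 were thus rarely found without another marker. Over all C1q-passing cells thinned to 2000 UMIs, Lyve1 and Folr2 were found together in 23.4%, which was 2.07 times the product of their shares, and Cd163 and Cbr2 in 26.7%, which was 1.38 times theirs. Depth moved with the number of markers, since the median cell held 5841 UMIs with 2 markers, 6849 with 3 and 8466 with 4. The members held a median of 7277 UMIs and the other C1q-passing cells 5663. When every cell was thinned to 2000 UMIs before the rule was applied, 30.9% of the remaining baseline cells were members.

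The levels of the genes that chose the members are a description and no finding. Levels are given as UMIs of a gene per 1000000 summed UMIs, without mitochondrial genes (CPM). Lyve1 was at 919 CPM in the members and 10.9 CPM in the other C1q-passing cells. Cd163 was at 884 and 97.0 CPM, Cbr2 at 787 and 56.4 CPM, and Folr2 at 766 and 11.7 CPM. The contrast was thus smaller for Cd163 and Cbr2 than for Lyve1 and Folr2. Just inside the C1q cut lay 38 members (median 32.7 C1q UMIs per 10000) with a median of 2131 UMIs and 14.7% mitochondrial UMIs. Just outside it lay 27 cells with at least 2 markers (median 27.8 C1q UMIs per 10000), with 2156 UMIs and 12.9%. Both edge groups were shallow beside the members as a whole, whose median mitochondrial share was 5.04%.

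The sequence before the start of 3 genes that held a macrophage motif is shown, because these genes were detected together and Timd4, described next, was low outside the members. The windows are the 250 bases before the start in RefSeq on GRCm38.p6, written 5′ to 3′ on the strand of the gene. Capitals mark the core motifs of PU.1 (GAGGAA) and of MAF factors (TGCTGA), 2 kinds of factor known from macrophages, on either strand. Among 32851 promoter windows of this length, 23.3% held the PU.1 letters and 16.1% the MAF letters. The table lists 2 starts for Folr2.
Timd4, chr11:46810549-46810798, plus strand: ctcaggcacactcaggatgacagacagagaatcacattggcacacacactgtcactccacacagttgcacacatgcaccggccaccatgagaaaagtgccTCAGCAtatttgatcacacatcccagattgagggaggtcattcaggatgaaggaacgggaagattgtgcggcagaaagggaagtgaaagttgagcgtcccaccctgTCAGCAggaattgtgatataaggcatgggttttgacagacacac
Folr2, chr7:101845332-101845581, minus strand: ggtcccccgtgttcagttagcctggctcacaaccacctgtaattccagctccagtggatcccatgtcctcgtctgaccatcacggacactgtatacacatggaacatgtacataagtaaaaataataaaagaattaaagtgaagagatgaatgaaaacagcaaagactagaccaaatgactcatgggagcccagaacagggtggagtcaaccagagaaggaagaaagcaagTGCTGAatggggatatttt
Folr2, chr7:101857191-101857440, minus strand: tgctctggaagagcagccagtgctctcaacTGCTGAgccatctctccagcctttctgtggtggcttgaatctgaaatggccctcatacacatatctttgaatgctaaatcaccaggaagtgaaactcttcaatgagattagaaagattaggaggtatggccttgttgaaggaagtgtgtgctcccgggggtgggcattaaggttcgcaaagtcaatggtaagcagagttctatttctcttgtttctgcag
Cbr2, chr11:120732022-120732271, minus strand: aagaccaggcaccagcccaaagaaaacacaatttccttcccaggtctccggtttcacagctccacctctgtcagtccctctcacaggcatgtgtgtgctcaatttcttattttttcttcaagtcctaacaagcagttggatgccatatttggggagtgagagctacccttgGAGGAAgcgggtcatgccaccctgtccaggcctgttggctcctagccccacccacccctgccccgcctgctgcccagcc
The Timd4 window held the MAF letters 150 and 44 bases before the start. The Folr2 windows held them 19 and 220 bases before their starts, and the Cbr2 window held the PU.1 letters 79 bases before its start. The Cd163 window (chr6:124304401-124304650, plus strand) held neither. These matches are a description of letters and not of binding. Lyve1 itself lies at chromosome 7, 110850607 to 110863239, on the minus strand of GRCm38.

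The name of the cells was checked against marker genes that the rule did not use. Timd4, a receptor for phosphatidylserine on dying cells and a marker of long-lived macrophages, was at 115 CPM in the members against 8.93 CPM in the others. Mrc1, the mannose receptor, was at 2358 against 975 CPM. Siglec1, a sialic acid receptor, was at 48.0 against 23.2 CPM, just under the floor for the counts below. The general macrophage gene Adgre1, which encodes F4/80, was at 412 and 376 CPM, so the comparison cells were macrophages by this gene too. In the 1106 members with only 2 markers, Timd4 was at 18.1, Mrc1 at 1636 and Siglec1 at 38.2 CPM. These values lay between those of all members and of the others, so the name holds less firmly for these cells. Ccr2 had a UMI in 21.0% of all members and in 45.0% of the others. Residence and origin were not measured, and the name rests on transcripts alone.

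Apart from the Ccr2 and monocyte lists, markers of other cells that the sort could hold summed to at most 78.1 CPM in the members. The lymphatic, fibroblast, mural, T and NK, cardiomyocyte and dendritic sums were higher in the members than in the others. The 6 lymphatic endothelial genes, listed because LYVE1 also marks lymphatic vessels, summed to 8.85 CPM in the members and 5.61 CPM in the others, with Prox1 highest at 3.87 CPM. The 7 blood endothelial genes summed to 45.6 and 92.5 CPM, and most of the member value was Fabp4 at 30.8 CPM. The 6 B cell genes summed to 36.3 and 55.0 CPM. The 7 fibroblast genes summed to 10.7 and 10.4 CPM, the 5 mural genes to 4.48 and 3.98 CPM and the 6 T and NK genes to 1.28 and 0.724 CPM, with Gzma at 0 in the members. Cardiomyocyte genes, 6 in all, summed to 78.1 and 67.6 CPM. The 7 granulocyte genes summed to 47.6 and 70.7 CPM, the 9 dendritic genes to 51.3 and 43.3 CPM and the 5 erythroid genes to 4.34 and 5.55 CPM, with Alas2 at 0. The list of 10 Ccr2 macrophage and monocyte genes summed to 748 CPM in the members against 1844 CPM in the others, and that of 7 non-classical monocyte genes to 218 against 296 CPM.

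Free RNA gives a few UMIs of a gene to cells that do not express it. B cells, which lack these genes, were used to estimate that share. Doublets were left in and can add to the estimate, and their part was not tested. C1qa had a UMI in 41.1% of the baseline B cells used here. Of 90 baseline B cells (at least 3 B cell genes with a UMI, under the C1q cut), 5 had at least 2 of the 4 markers (5.56%, 1.83 to 12.5%). After thinning to 2000 UMIs, Lyve1 had a UMI in 49.3% of the members, 1.74% of the other C1q-passing cells and 3.61% of 83 B cells. Cd163 had one in 62.6%, 14.1% and 9.64%, and Timd4 in 15.6%, 1.48% and 0 of 83, which allows up to 3.61% (3 counts of the total). The low share of Lyve1 in the other C1q-passing cells follows from the rule, which puts a cell with 2 markers among the members. Of those cells, 94 had a Timd4 UMI at full depth, and 2 of them had 10 or more. The B cells had a median of 3368 UMIs before thinning.

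Against the other C1q-passing cells, the members had higher Timd4, Colec12, Gas6, F13a1, C4b, Ccl8 and Ccl24, among others, and lower Ccr2, Il1b, Itgax and, by at least 2-fold, 6 of the 10 genes of MHC class II presentation past the floor on level. Of 3470 genes with at least 50 CPM in either group and at least 10 UMIs in each, 88 (2.54%) were at least 2-fold higher in the members and 53 (1.53%) at least 2-fold lower. The 7 genes of the rule were left out of these counts. Most genes differed little, with 3007 of the 3470 within 0.5 on the log2 scale and a median log2 ratio of 0.06. All are descriptions of 1 library, without a test.

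Highest of all was Ccl8, a monocyte-attracting chemokine, at 105 CPM in the members and 5.49 CPM in the others (log2 ratio 4.26, 95% interval 3.96 to 4.58). It was not evenly spread, since 577 members had a UMI and 50 of them held 49.9% of its UMIs. The log2 ratio was 2.97 with cells thinned to 2000 UMIs before the rule was applied and 2.82 as the mean of each cell's CPM. Colec12, a scavenger receptor of the collectin family, was at 137 against 10.1 CPM (log2 3.75). Timd4 followed with a log2 ratio of 3.69 (3.45 to 3.94), and 1497 members had a UMI of it. Ccl24, eotaxin-2, was at 319 against 37.1 CPM (log2 3.11), and Ltc4s, leukotriene C4 synthase, at 317 against 33.9 CPM (log2 3.22). These were detected in over 2000 members each, 2079 for Ccl24 and 2196 for Ltc4s.

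F13a1, the catalytic subunit of coagulation factor XIII, separated the groups at a high level, with 2205 CPM in the members and 356 CPM in the others (log2 2.63, 2.59 to 2.67). It had a UMI in 95.1% of the members. Gas6, which bridges phosphatidylserine to the TAM receptors, was at 436 against 85.2 CPM (log2 2.36, 2.28 to 2.44). Ednrb, the endothelin B receptor, was at 113 against 13.8 CPM (log2 3.04), and Chp2, a calcineurin B-like protein, at 141 against 12.8 CPM (log2 3.46). The complement-related genes Fcna, C4b and Vsig4 encode ficolin A, component C4 and a receptor for C3 fragments, and had log2 ratios of 2.85, 2.56 and 2.50. Vsig4 was uneven, with 40.7% of its 2838 UMIs in 50 of 480 positive members. Pla2g2d, a secreted phospholipase, Selenbp1 and Fxyd2, a regulator of the sodium pump, closed the list of 15 with log2 ratios of 2.37, 2.27 and 2.27.

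**Figure D1:**
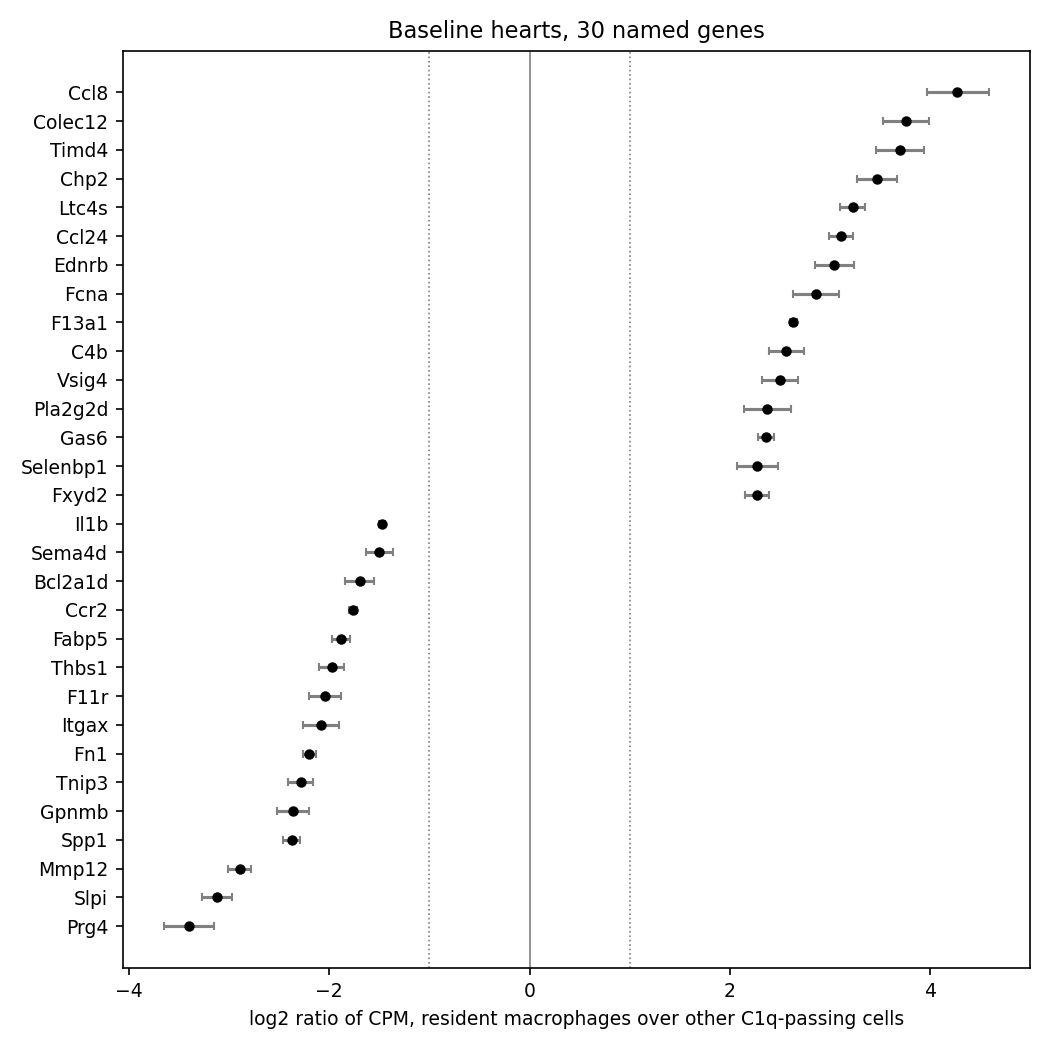
Log2 ratio of CPM between the resident macrophages and the other C1q-passing cells of the baseline library (horizontal axis) for 30 named genes, 15 from each end of the ranking; bars are 95% counting intervals and dotted lines mark a 2-fold difference. Ccl8 lay highest at 4.26 and Prg4 lowest at -3.39.

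Among the 15 genes with the lowest ratios, Ccr2 and Il1b were found in the most comparison cells, 1233 and 1679. Ccr2 was at 229 CPM in the members and 776 CPM in the others (log2 -1.76, -1.80 to -1.72). Il1b, the inflammatory cytokine interleukin-1β, was at 461 against 1279 CPM (log2 -1.47, -1.50 to -1.44). Itgax, which encodes CD11c, was at 12.3 against 51.9 CPM (log2 -2.08). Mmp12, macrophage elastase, was at 25.3 against 188 CPM (log2 -2.89), and Tnip3, an inhibitor of NF-κB signalling, at 25.3 against 123 CPM (log2 -2.28). The junctional protein F11r, the survival gene Bcl2a1d and the semaphorin Sema4d had log2 ratios of -2.04, -1.70 and -1.50. The other ratios on this side came mostly from few cells. Prg4 (log2 -3.39), which encodes lubricin, had 920 UMIs in only 19 of the comparison cells and 157 UMIs in 37 members. Its log2 ratio was -2.09 with the same thinning before the rule. Slpi (log2 -3.12), a protease inhibitor, had a UMI in 73 members and in 73 of the others. Spp1 (osteopontin), Gpnmb, Fn1 (fibronectin), Thbs1 (thrombospondin-1) and Fabp5, a fatty acid carrier, had log2 ratios of -2.37, -2.36, -2.20, -1.97 and -1.88, and 50 cells held between 69.9 and 98.0% of their UMIs in the comparison cells.

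By gene list, of 10 genes past the floor in the list of scavenger and endocytic receptors, 4 were at least 2-fold higher and 0 lower. Over all 3470 genes, 2.54% were higher and 1.53% lower, which holds beside each list below. The median log2 ratio of the 10 was 0.83 beside 0.06 over all genes. The 4 were Mrc1 (log2 1.27), Stab1 (717 against 267 CPM, log2 1.42), Colec12 and Ltc4s, of which Ltc4s is an enzyme and not a receptor. Dab2, an endocytic adaptor, was at 1689 against 931 CPM (log2 0.86). Cltc, the clathrin heavy chain, had a log2 ratio of 0.81. Dab2 and Cltc are not receptors either, and both entered the median. Of 10 genes for the uptake of apoptotic cells, 3 were higher (Timd4, Gas6 and Stab1) and 2 lower. The lower ones were the receptors Axl, at 103 against 222 CPM (log2 -1.11), and Havcr2 (log2 -1.06). Mertk, the TAM receptor of macrophages, was at 96.1 against 63.9 CPM (log2 0.59). Of 7 C-type lectins 1 was higher, Clec10a, at 106 against 31.3 CPM.

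Iron and heme genes were higher in part. Of 12 such genes 3 were at least 2-fold higher and 0 lower. Slc40a1, the iron exporter ferroportin, was at 76.1 against 17.7 CPM (log2 2.10), Cp, the ferroxidase ceruloplasmin, at 86.0 against 21.3 CPM (log2 2.01), and Blvrb, a biliverdin reductase, at 423 against 189 CPM (log2 1.17). Hmox1, which opens the heme ring, was at 208 against 138 CPM (log2 0.59), and the ferritin genes Fth1 and Ftl1 had log2 ratios of -0.26 and 0.12.

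Of 9 complement genes outside C1q, 4 were higher, C4b, Cfp and Vsig4 among them, and 1 lower (Itgax). Cfp, properdin, was at 232 against 114 CPM (log2 1.02). Of 11 matrix and coagulation genes, 3 were higher (F13a1, Fcna and Pf4) and 4 lower (Fn1, Spp1, Thbs1 and Mmp12). Pf4, platelet factor 4, was at 3749 against 1274 CPM (log2 1.56). Of 3 secreted growth factor genes past the floor, Igf1 was higher, at 405 against 169 CPM (log2 1.26). It encodes insulin-like growth factor 1.

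Of 9 CC chemokine ligands, 3 were at least 2-fold higher (Ccl7, Ccl8 and Ccl24) and 0 lower, with a median log2 ratio of 0.86. Ccl7 was at 227 against 66.5 CPM (log2 1.77). Ccl3 and Ccl4, which attract leukocytes, had log2 ratios of -0.65 and -0.85. Of 3 CXC ligands past the floor, 0 passed 2-fold either way. Of 5 chemokine receptors, Ccr2 alone passed, on the lower side. Cx3cr1, the fractalkine receptor, was at 416 against 735 CPM (log2 -0.82).

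Genes of MHC class II presentation were lower as a group. Of 10 past the floor, 6 were at least 2-fold lower and 0 higher, with a median log2 ratio of -1.11. Cd74, the invariant chain, was at 9408 against 20735 CPM (log2 -1.14), H2-Aa at 3630 against 8043 CPM (log2 -1.15) and Ciita, the master activator of class II genes, at 86.5 against 194 CPM (log2 -1.17). The list named after Trem2 and lipid handling had 16 genes past the floor, of which 0 were higher and 6 lower (Gpnmb, Spp1, Cd9, Fabp4, Fabp5 and Lgals3). Trem2 itself had a log2 ratio of -0.05, and Apoe, apolipoprotein E, was at 17207 against 9627 CPM (log2 0.84). Of 4 inflammatory cytokine genes, Il1b alone was lower, and Tnf was at 90.3 and 84.0 CPM. Of 6 alternative activation genes, Mrc1 and Ccl24 were higher, while Retnla, a secreted resistin-like protein, was at 550 against 957 CPM (log2 -0.80).

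Most regulatory and general macrophage genes stayed within 2-fold. Of 17 transcription factor genes, Maf was higher, at 1314 against 539 CPM (log2 1.29), and Runx3 lower, at 59.2 against 139 CPM (log2 -1.23). Spi1, which encodes PU.1, had a log2 ratio of -0.11. Klf2 was at 1377 against 715 CPM (log2 0.95). Of 6 genes in the list of Fc gamma receptors, Fcgrt was higher (log2 1.56) and Fcgr4 lower (46.3 against 93.0 CPM). Fcgrt encodes the neonatal Fc receptor, and Fcer1g, also in the list, encodes a signalling chain. Of 9 integrins 1 was lower, Itgax, and of 7 genes for colony-stimulating factor and TGF-beta receptors 1 was lower, Tgfbr1 (log2 -1.25). Csf1r, whose promoter drives the reporter, was at 1372 and 1055 CPM (log2 0.38). Of 7 cholesterol efflux genes 1 was higher, Abca1 (log2 1.22). None passed 2-fold among 14 lysosomal hydrolases, 5 interferon-stimulated genes, or 18 immediate-early and heat-shock genes, which respond to tissue digestion. Their median log2 ratios were 0.26, -0.13 and 0.03.

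The level of F13a1, Gas6, Il1b and Ccr2 changed in 1 direction at every step in the number of markers, and that of Ednrb was higher only from 3 markers on. F13a1 was at 247 CPM in C1q-passing cells with no marker, 456 with 1, 758 with 2, 2079 with 3 and 2899 with 4. Gas6 went from 59.8 to 109, 196, 428 and 546 CPM over the same classes. Timd4 was at 8.30, 9.52, 18.1, 91.1 and 170 CPM, so the members with only 2 markers stood nearer to the comparison cells than to those with 4. Ednrb was at 18.6, 9.41, 7.78, 94.8 and 169 CPM, with its lowest value at 2 markers. In the other direction, Il1b was at 1322, 1239, 963, 496 and 225 CPM, and Ccr2 at 874, 686, 442, 231 and 135 CPM. A cell with fewer markers can also be a shallower one, as the depths above show. Members with 4 markers (1771 cells) and with 2 (1014 cells) were also compared after each was thinned to 2000 UMIs. The classes were those found at full depth, with medians of 8485 and 6135 UMIs before thinning, so depth still moved with them. Timd4 was there at 167 against 15.6 CPM (log2 3.41, 2.88 to 4.00), Fcna at 103 against 7.82 CPM (log2 3.72), and Ccr2 at 106 against 351 CPM (log2 -1.72).

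**Figure D2:**
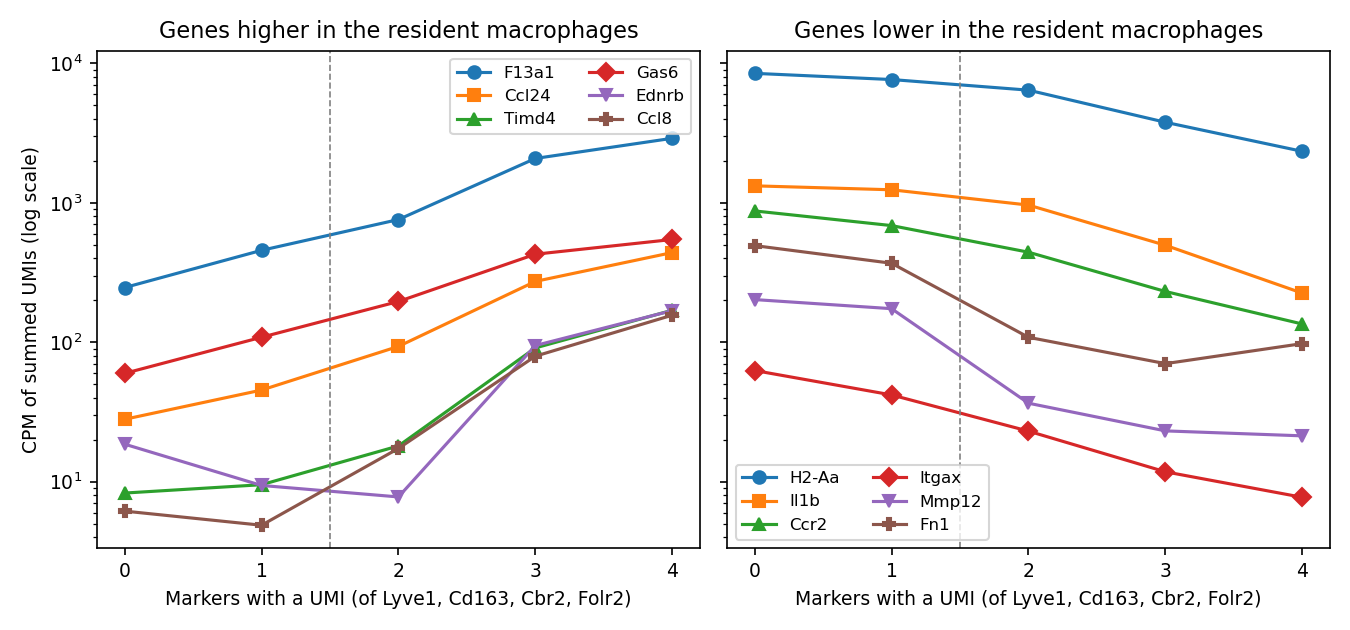
CPM of summed UMIs (vertical axis, log scale) in baseline C1q-passing cells with 0 to 4 of the markers detected, for 6 genes that were higher (left) and 6 that were lower (right) in the resident macrophages; the dashed line is the cut of the rule. Timd4 and Ednrb stayed under 20 CPM up to 2 markers and reached 170 and 169 CPM at 4, while Ccr2 fell by steps from 874 to 135 CPM.

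MHC class II divided the members among themselves. It was measured per cell as the summed UMIs of H2-Aa, H2-Ab1, H2-Eb1 and Cd74 per 10000, in the 3784 members with at least 2000 UMIs after thinning. The median was 115, the quartiles 10 and 355, and the values spread widely, with 29.8% of members under 20 and 52.5% over 100. The comparison cells had a median of 465, and 3.94% were under 20. The median fell with the markers detected, from 495 with none to 435 with 1, 345 with 2, 120 with 3 and 35 with 4. Members with 3 markers were spread over the whole range, with 20.02% of their cells under 10 and 20.1% between 300 and 500, in bins of unequal width.

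**Figure D3:**
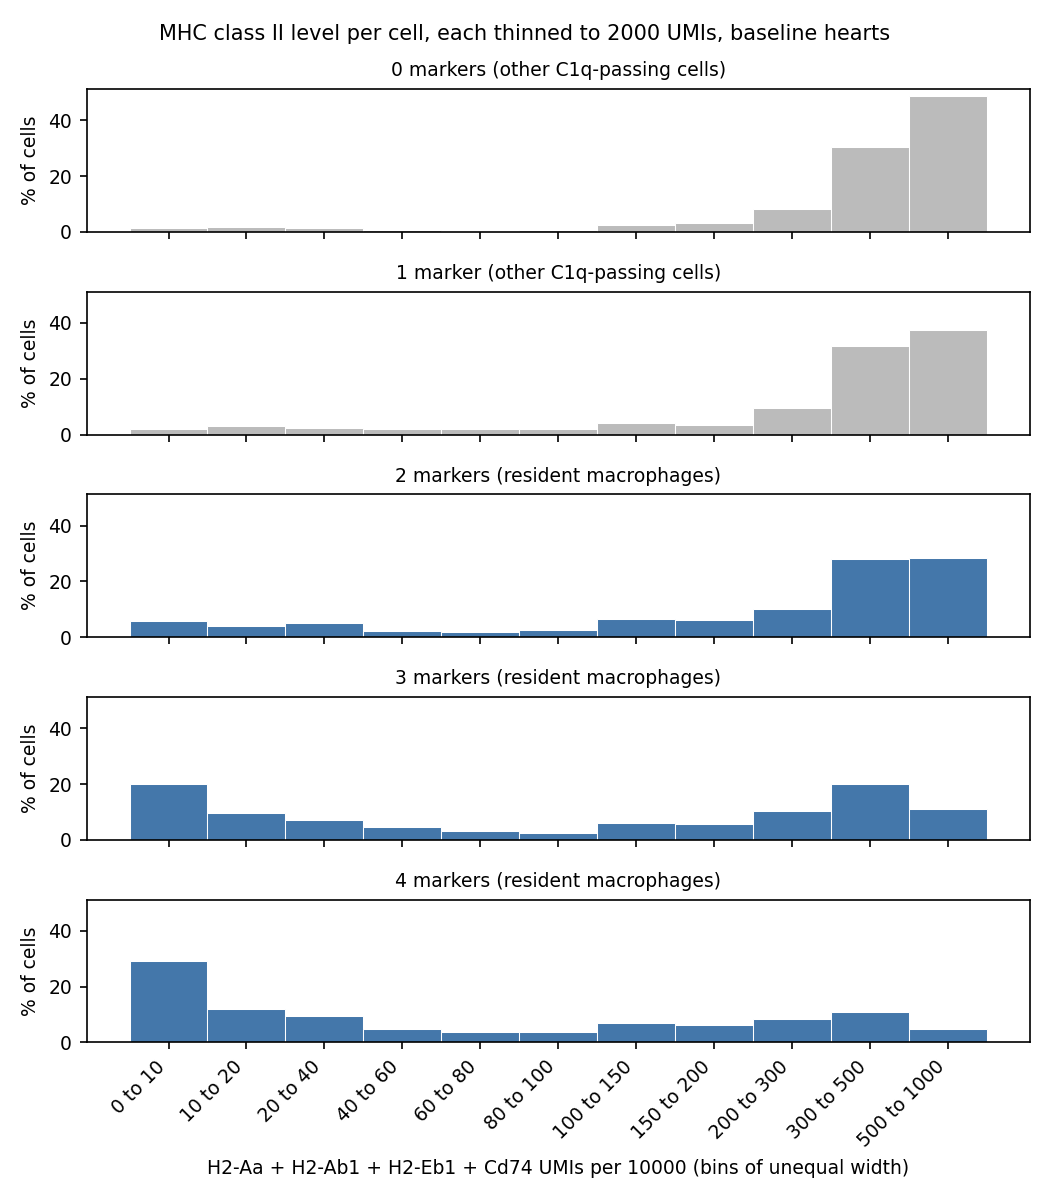
Share of cells (vertical axis, percent) by MHC class II UMIs per 10000 (horizontal axis, bins of unequal width) in baseline C1q-passing cells with 0 to 4 markers, each cell thinned to 2000 UMIs. Cells with no marker lay mostly at 300 and above (30.4 and 48.8% in the last 2 bins), cells with 4 markers mostly at the low end (29.2% under 10).

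Between the upper and lower terciles of members by this sum (1244 and 1298 cells), 36 of 3477 genes were at least 2-fold higher in the upper tercile and 65 at least 2-fold lower. The summed genes are a matter of choice here and not a result. Ciita and H2-DMb1, which the sum did not use, were at 209 against 6.57 CPM and 529 against 50.1 CPM. Ccr2 was at 376 CPM in the upper tercile and 44.7 CPM in the lower (log2 3.07, 2.78 to 3.37), and Il1b at 953 against 173 CPM (log2 2.46). The others of the 10 highest were Slamf7, Plbd1, Cadm1, Clec4b1, Tle1, Fcgr4, Retnla and Mmp13, with log2 ratios from 1.90 to 2.57. Retnla was at 748 against 197 CPM. The 10 lowest were Ctla2a, Fcna, Ednrb, Colec12, Vsig4, Ccl8, Emp1, Slc40a1, Fgfr1 and Ninj1, from -3.40 to -1.94, and 5 of them were also among the 15 genes highest in the members. Lyve1 was at 295 against 1389 CPM (log2 -2.24) and Folr2 at 352 against 1105 CPM (log2 -1.65), whereas Cd163 and Cbr2 had log2 ratios of -0.79 and -0.89. Depth moved with the split, with medians of 6639 UMIs in the upper and 8254 in the lower tercile before thinning, and its part in the split itself was not tested.

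Members with and without a Timd4 UMI differed in fewer genes. After thinning, 592 members had a Timd4 UMI and 3192 had none, which at this depth does not mean that they lacked the transcript. Of 3484 genes, 15 were at least 2-fold higher with Timd4 and 19 at least 2-fold lower. Ednrb was at 214 against 69.3 CPM (log2 1.62, 1.39 to 1.86), Ccl8 at 200 against 70.1 CPM (log2 1.51), Fcna at 127 against 50.6 CPM (log2 1.33) and Vsig4 at 168 against 69.6 CPM (log2 1.27). Rcn3, Selenbp1 and C4b followed with 1.22, 1.20 and 1.19. Lyve1 and Folr2 were also higher, at 1555 against 713 CPM and 1266 against 641 CPM. The 3 largest ratios, of Cxcl9 (3.39), Cxcl13 (3.34) and Cd209f (2.25), rested on few cells, with a UMI in 17, 38 and 69 of the 1497 members in which Timd4 was found at full depth. On the lower side stood the proliferation genes Hist1h1b (log2 -2.02) and Mki67 (16.2 against 62.2 CPM, log2 -1.94), followed by Cd9, Il1b, Nes, Cadm1, Ccr2, Plxdc2, Fn1 and Col14a1, from -1.89 to -1.32. Hist1h1b and Mki67 rested on 26 and 18 UMIs in the members with Timd4. At full depth 50 members held 76.8% of the Mki67 UMIs. Mki67 or Top2a had a UMI in 3.21% of the members with Timd4 and 5.98% of those without. H2-Aa was at 2453 against 4315 CPM (log2 -0.81).

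The same rule met far fewer cells in the infarct libraries. It held for 891, 562 and 885 cells of infarct replicates 1, 2 and 3, which were 8.57, 5.21 and 8.75% of their cells (mean 7.51% ± 1.99, SD, n = 3). Every infarct library thus lay below the 38.4% of the baseline library, which has no replicate. After thinning to 2000 UMIs the shares were 2.86, 1.30 and 3.54% against 30.9%. None of 26, 11 and 46 B cells of the infarct libraries had 2 or more markers, which allows up to 11.5, 27.3 and 6.52% (3 counts of each total). A smaller share can come from fewer of these cells, from more of the others or from less of these transcripts per cell. The tissue taken can also differ, since the remote zone of the infarct hearts was cut away before digestion. These cannot be told apart in shares.

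**Figure D4:**
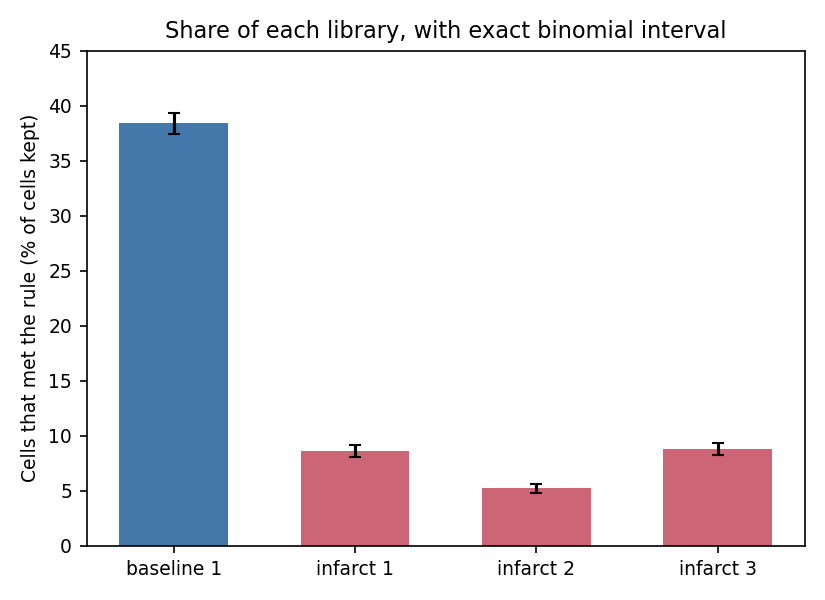
Cells that met the rule as a percent of the cells kept in each library (vertical axis); error bars are exact binomial 95% intervals, which cover counting error only. The baseline library stood at 38.4% and the infarct libraries at 8.57, 5.21 and 8.75%.

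Cells meeting the rule were also compared with the other C1q-passing cells within each infarct library. The rule was written for the baseline library, but it and the lists were chosen with earlier results of these data known. The infarct hearts are therefore no independent check of the baseline differences. Counts summed over cells were tested with edgeR in a model with the library as block, and genes passed at an adjusted p (Benjamini-Hochberg) under 0.01. Of 12860 genes, 500 (3.89%) were higher in the cells meeting the rule and 378 (2.94%) lower. Of the 88 genes that were at least 2-fold higher at baseline, 62 passed as higher, 0 as lower and 26 did not pass. Of the 53 that were lower at baseline, 39 passed as lower and 12 did not pass, while Fn1 and Slpi passed as higher. The 88 and 53 genes all had at least 50 CPM at baseline, whereas the 12860 include less abundant genes. Without the block, 11 genes passed as higher and 14 as lower. Without infarct replicate 3, the counts were 161 and 76, and without infarct replicate 2 they were 1082 and 826.

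Of the 15 genes highest at baseline, 14 passed as higher in the infarct libraries. Ednrb was at 218, 44.7 and 176 CPM in cells meeting the rule of replicates 1, 2 and 3 and at 29.1, 5.30 and 18.3 CPM in the others (log2 ratio 2.99, SE 0.08, edgeR adjusted p = 7.57e-07). Its level was lowest in replicate 2 in both kinds of cell, and each pair differed in the same direction. F13a1 was at 516, 416 and 489 CPM against 82.5 to 119 CPM (log2 2.18, SE 0.07, edgeR adjusted p = 1.65e-06), and the groups did not overlap. Timd4 was at 3.81, 6.32 and 15.4 CPM against 0.370, 0.289 and 1.19 CPM (log2 3.71, SE 0.24, edgeR adjusted p = 8.79e-05). These values rest on 226 Timd4 UMIs in all in the cells meeting the rule. Vsig4 was at 20.0, 20.4 and 47.8 CPM against 1.09, 0.206 and 1.19 CPM (log2 5.09, SE 0.31, edgeR adjusted p = 7.04e-05). The other genes that passed were Ccl8, Colec12, Chp2, Ltc4s, Ccl24, Fcna, C4b, Pla2g2d, Gas6 and Fxyd2, with log2 ratios from 1.00 to 5.17. Selenbp1 had a log2 ratio of 0.45 (edgeR adjusted p = 0.0295). Under the settings tried, these 14 passed in all but the fit without the block, where only F13a1 and Fxyd2 of them did.

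On the lower side, 8 of the 15 genes passed in the same direction. Itgax was at 12.3 ± 1.02 CPM (SD, n = 3) against 37.4 ± 2.20 CPM, without overlap (log2 -1.70, SE 0.10, edgeR adjusted p = 4.98e-05). Il1b was at 221, 429 and 164 CPM against 652, 721 and 582 CPM (log2 -1.47, SE 0.18, edgeR adjusted p = 0.00152). Ccr2 was at 541, 264 and 278 CPM against 646, 420 and 471 CPM (log2 -0.65, SE 0.11, edgeR adjusted p = 0.00574), so its groups overlapped although each pair differed in the same direction. Ccr2 and Tnip3 did not pass without infarct replicate 3 (adjusted p over the settings from 4.15e-10 to 0.299 for Ccr2). Mmp12, F11r, Bcl2a1d and Sema4d also passed. Fn1 was higher, at 3607, 575 and 2782 CPM against 1002, 241 and 514 CPM (log2 1.76, SE 0.18, edgeR adjusted p = 8.39e-04), and so was Slpi (log2 1.30, SE 0.13, edgeR adjusted p = 6.02e-04). Slpi did not pass with at least 3 markers required. Without the block, neither Fn1 nor Slpi passed, and of the 8 lower genes Itgax alone did. Prg4, Spp1, Gpnmb, Thbs1 and Fabp5 did not pass. With cells thinned to 2000 UMIs before the rule, Gpnmb (log2 -1.59), Fabp5 (-1.09) and Spp1 (-0.73) passed as lower, as they did with at least 3 markers (-1.82, -1.30 and -0.85), whereas their ratios in the fit as described were -0.43, 0.08 and 0.19. Cells meeting the rule were deeper than the others, with medians of 9619 to 10525 UMIs against 8470 to 8560.

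**Figure D5:**
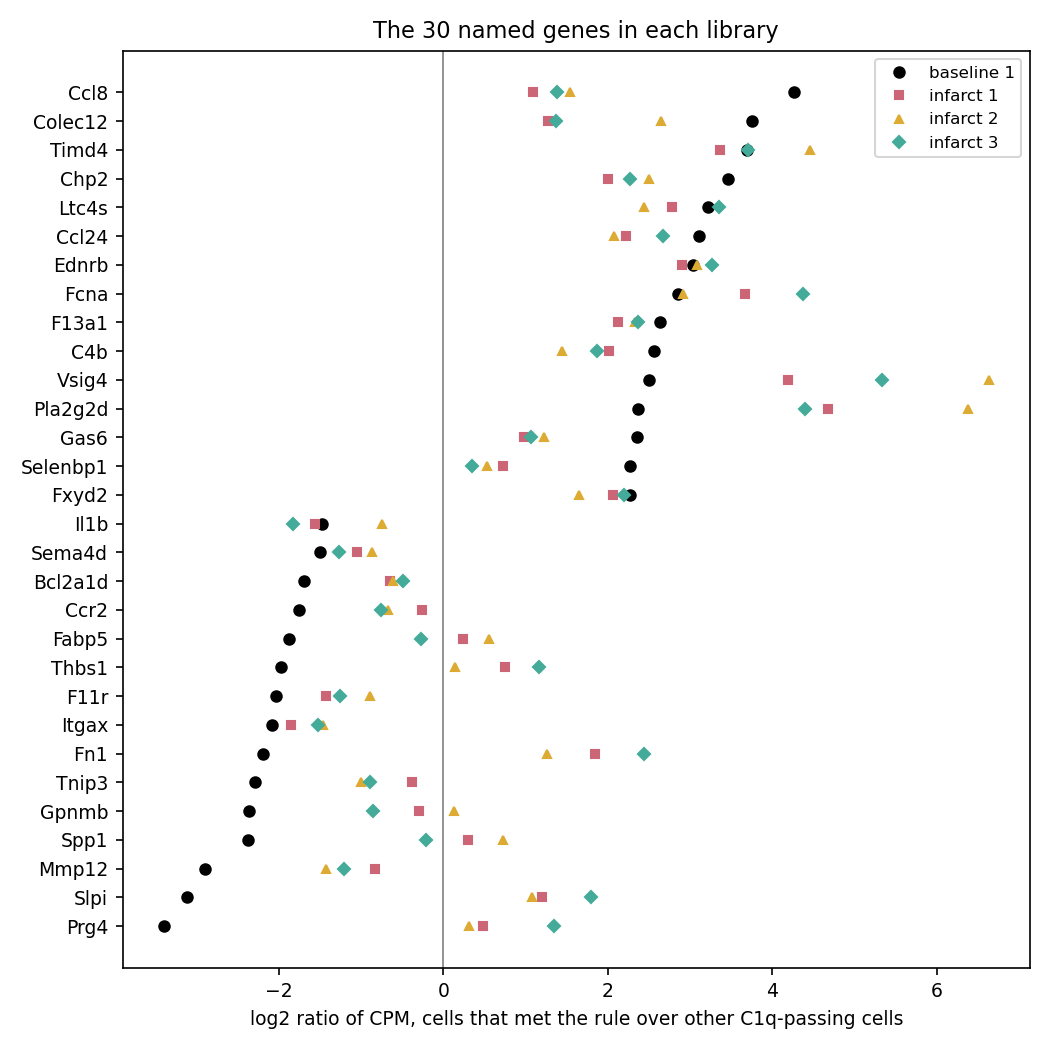
Log2 ratio of CPM between cells that met the rule and other C1q-passing cells (horizontal axis) in the baseline library and in each infarct library, for the 30 named genes in order of the baseline ratio. The 15 genes highest at baseline lay above 0 in all 3 infarct libraries, whereas Fn1, Slpi, Prg4 and Thbs1 lay below 0 at baseline and above 0 in every infarct library.

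By list, MHC class II presentation had 0 of 14 genes higher and 9 lower in the infarct test, with a median log2 ratio of -1.10 beside 0.00 over all genes. Over all 12860 genes, 3.89% were higher and 2.94% lower. Cd74 was at 5133, 3367 and 3256 CPM against 10220, 9032 and 9365 CPM (log2 -1.40, SE 0.11, edgeR adjusted p = 2.11e-04). Of 13 genes in the list of scavenger and endocytic receptors 8 were higher and 0 lower, Mrc1 among them (log2 0.69), whereas Stab1 did not pass (log2 0.46). Ltc4s and Cltc, which are not receptors, were among the 8. Of 15 complement genes 6 were higher and 1 lower, of 16 matrix and coagulation genes 8 higher and 2 lower, and of 12 CC chemokine ligands 5 higher and 3 lower (Ccl3, Ccl4 and Ccl5). Iron and heme genes had 2 of 14 higher, Tfrc and Cp, and Slc40a1 had a log2 ratio of 0.00. Maf was higher (log2 0.52, edgeR adjusted p = 0.00157) and Igf1 did not pass (log2 0.01). Of 18 genes of the Trem2 list 0 were higher and 2 lower, Cd9 and Apoe, and of 11 inflammatory cytokine genes 1 was higher (Il6) and 5 lower. Of 18 immediate-early and heat-shock genes 6 were lower, Fos and Atf3 among them.

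The level of several genes in cells meeting the rule lay far from baseline in all 3 infarct libraries, side by side and without a test. F13a1 was at 2205 CPM at baseline and at 416 to 516 CPM in the infarct libraries. Timd4 was at 115 CPM at baseline and at most 15.4 CPM, Colec12 at 137 and at most 15.3 CPM, and Mrc1 at 2358 and at most 925 CPM. These genes were lower in each infarct library. Spp1 was at 47.4 CPM at baseline and at 890 to 2262 CPM in the infarct libraries, and Fn1 at 93.4 and 575 to 3607 CPM. The other C1q-passing cells also held Spp1 at a mean of 1252 CPM in the infarct libraries. The rule uses presence and not level, so a cell with 1 UMI of each of 2 markers counts the same as one with many. Marker number also differed, with at least 3 found in 2825 of the 3931 baseline members. In infarct replicates 1, 2 and 3 this held for 233 of 891, 111 of 562 and 316 of 885 cells. Baseline members with 2 markers had F13a1 at 758, Timd4 at 18.1, Colec12 at 24.7 and Mrc1 at 1636 CPM. In them Spp1 was at 73.0 and Fn1 at 108.5 CPM. The part of marker number in these levels was not tested, nor was that of cutting away the remote zone of the infarct hearts.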

How the data were processed

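Per the labels and methods of the study, cardiac cells were sorted by EGFP and Ly6G and sequenced on 10x Genomics 3′ v3.1 libraries. The authors made the deposited values with Cell Ranger and mm10, as UMI counts for each gene in each cell, not normalized. The version is given as 3.0.1 in the submitters' processing notes and as 3.1.0 in the headers of the files. The files held 10314 baseline cells and 10144 to 10804 per infarct library (71093963 UMIs, and 88157753 to 97944428), of which 10238 and 10117 to 10782 were kept (median UMIs 6398 to 8556). No authors' annotation of cells was used here.

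Everything else was computed here from those counts (Python 3.11.15, scipy 1.17.1, R 4.3.3). The members, the 22 pathway lists and the 15 marker lists were chosen with earlier results of these data known. Clec7a of the C-type lectin list was not analysed here. Some genes of the lists are counted but not reported by name. Baseline values are CPM of summed UMIs with exact Poisson or binomial 95% intervals. They cover counting error only, and no test was made because there is 1 library. Named genes were the 15 highest and 15 lowest log2 ratios at or over 50 CPM in either group and 10 UMIs in each, leaving out rule, mitochondrial, ribosomal protein, haemoglobin and sex-marking genes. The genes of the lists were named by size of ratio and level. Among members, the 10 highest and 10 lowest were named. Infarct libraries gave 6 sums, tested by edgeR 4.0.16 (TMM, filterByExpr, quasi-likelihood) with the library as block, since both sums of a pair came from the same heart.

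The edgeR step was tested on simulated data drawn from these sums. It recovered 100% of 100 genes changed 2-fold and 100% of 100 changed 4-fold among 12867 genes, with 6 unchanged genes called. The changed genes were drawn from those with a mean of at least 50 CPM, and simulated mean levels did not differ between libraries. Recovery of genes at lower levels, Timd4 and Vsig4 among them, was not tested. Doublets were left in. The automatic threshold of Scrublet (scanpy 1.11.5) called 2.18% of baseline and at most 0.0198% of infarct cells, so the alternative removed the highest-scoring 8.1 to 8.63% of each library. Other settings were DESeq2 1.42.0 size factors and Wald test, no filter, no block, each infarct library left out, thinning to 2000 UMIs, other marker numbers and C1q cuts, a mitochondrial limit of 10%, TMM scaling, per-cell means and a floor of 10 CPM. Promoter windows came from RefSeq. Figures were drawn with matplotlib 3.10.9.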

Additional observations from a re-analysis of the deposited data

Results flagged for a closer look

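For 4 of the 15 genes lowest in the members at baseline, the log2 ratio of cells meeting the rule over other C1q-passing cells was negative at baseline and positive in all 3 infarct libraries. The difference between baseline and infarct was not tested, because the baseline is 1 library. Fn1 was at -2.20 at baseline and at 1.85, 1.26 and 2.44 in infarct replicates 1, 2 and 3 (fitted ratio 1.76). Slpi was at -3.12 and at 1.20, 1.08 and 1.80 (fitted 1.30). Prg4 was at -3.39 and at 0.49, 0.32 and 1.35 (fitted 0.77), and Thbs1 at -1.97 and at 0.74, 0.14 and 1.17 (fitted 0.61). Fn1 and Slpi passed the infarct test, though not in the fit without the block, and the other pair did not pass. At baseline, 12 comparison cells with a UMI each of Prg4, Slpi and Fn1 held 82.8% of the Prg4 UMIs, 93.2% of the Slpi UMIs and 37.6% of the Fn1 UMIs of all comparison cells. Of these 12 cells, 9 had a UMI of Gata6, a factor known from macrophages of the serous cavities. Only 2 members had a UMI of each of the genes.

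Outside the comparison, 227 of the 3566 baseline cells under the C1q cut had at least 2 of the 4 markers (6.37%, exact 95% interval 5.59 to 7.22%). The share in baseline B cells was 5.56% (1.83 to 12.5%) and its interval includes this share. Their median depth was 3282 UMIs, and Lyve1 was at 158 CPM in them against 919 CPM in the members. Of them, 41 had 3 of the markers and 16 all 4. The 27 just outside the C1q cut had Lyve1 at 411 CPM and Timd4 at 48.4 CPM, beside 406 and 40.6 CPM in the 38 members just inside it.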

How the results depend on the processing

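With cells thinned to 2000 UMIs, at least 3 markers or at least 1 marker, the members were 30.9, 27.6 and 52.1% of baseline cells and 45.2, 42.3 and 80.0% of C1q-passing cells, and the infarct mean was 2.56, 2.13 and 24.1%. A C1q cut of 50 gave 36.9% and 61.2%, a cut of 20 gave 57.5% of C1q-passing cells, doublet removal gave 36.4% and 57.4%, and leaving out cells over 10% mitochondrial UMIs gave 40.1% of baseline cells. Counts at 2-fold or more were 189 higher and 148 lower at a floor of 10 CPM, and 160 and 88 for 3 or more markers against none. TMM scaling moved the median log2 ratio from 0.06 to 0.00, with 81 higher and 59 lower. Under the 7 alternatives that could change them unevenly, 112 of 210 baseline ratios of named genes moved by less than their counting interval and 98 by more, and all kept their sign. Thinning moved Chp2 to 2.34, Spp1 to -3.64 and Itgax to -3.48.

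The infarct counts were 956 and 823 without a filter and 719 and 590 with at least 3 markers. With no replicate block, which drops the pairing of sums from the same heart, 11 genes were higher and 14 lower, all 25 among the 878 called with it. With 1 library left out the counts ran from 161 to 1082 higher and from 76 to 826 lower, lowest without infarct replicate 3 and highest without infarct replicate 2. DESeq2 size factors gave 529 and 382 and its Wald test 651 and 492. Of 300 ratios of named genes, 258 kept direction and call, 24 lost and 12 gained the call. The other 6 reversed: without infarct replicate 2, when thinned and with at least 3 markers, Fabp5 was at -0.11, -1.09 and -1.30 and Spp1 at -0.048, -0.73 and -0.85, while without infarct replicate 3 they were at 0.32 and 0.44. The cause was not tested. Depth limits genes near the floor and shares of cells with a UMI, and 3 hearts limit the test.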

Other observations

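Several genes were unevenly spread over the members. Retnla varied most from member to member among genes past the floor, leaving out the non-coding Gm42418 and Malat1, with a variance 31.9 times its mean after thinning where the median gene had 1.06. It had a UMI in 11.2% of the members, in 9.87% of the other C1q-passing cells and in 6 of 83 B cells (interval 2.70 to 15.1%), which includes the share in the members. At full depth 802 members had a UMI, 183 of them 10 or more, and 50 members held 64.2% of its UMIs. Cxcl10, an interferon-induced chemokine, had a UMI in 137 members, of which 19 had 10 or more, and Ccl12 in 1576, of which 317 had 10 or more. Cd209f, a C-type lectin, was under the floor at 22.3 CPM but had a UMI in 99 members against 7 of the comparison cells, each of those with 1 UMI.

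The proliferation genes, 7 in all, summed to 178 CPM in the members and 159 CPM in the other C1q-passing cells, with Mki67 at 82.3 CPM in the members.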
